A study of Mus musculus with 8 samples.

Results

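Genes of homologous recombination and the DNA damage checkpoint were examined in livers of mice 6 months old, 4 Atp7b KO and 4 WT. The set holds 42 genes, found among the 54232 rows of the count table. They were taken from a list of gene symbols, chosen with earlier results of these data known. Each of the 42 symbols matched 1 row. Loss of ATP7B, a copper pump of the hepatocyte, causes Wilson disease, and the series is titled for bile acid physiology in it. The KO allele, strain and sex were not given in the sources used here. Nothing there says whether libraries came from different animals either, and the p-values then measure spread between libraries, which may be technical.

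Homologous recombination repairs breaks that cross both DNA strands by copying the sister chromatid. The ends are cut back, the BRCA proteins prepare the exposed strand, and it then invades the matching duplex. The Fanconi anaemia pathway feeds crosslinked DNA into this repair, and the kinases ATM and ATR with their targets CHEK2 and CHEK1 stop the cell cycle while repair goes on. Many of these genes are transcribed mainly in cells that replicate DNA, through E2F-class factors, and adult liver in which few cells divide holds little of their RNA.

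Of the 42 genes, 21 were higher in KO livers, 1 (Ung) was lower and 20 did not pass the test, at an adjusted p under 0.05 by edgeR's quasi-likelihood test over all 15811 genes tested. Across those 15811 genes the test called 30.0%, with 17.6% higher and 12.5% lower. The median log2 fold change of the 42, KO minus WT, was 0.67, beside -0.05 for all genes tested. Every KO library lay above every WT library for 23 of the 42 genes and below every WT library for 3, beside 18.7% and 13.4% of all genes. Values written with ± SE below are log2 fold changes, KO minus WT, from that fit. All 42 passed the filter on low counts, 9 of them through the KO libraries alone, which ties their being tested to a high KO level. These are Bard1, Palb2, Rad51ap1, Rad51c, Fancd2, Exo1, Chek1, Clspn and Neil3. All 9 are among the 21 called higher, so that count rests in part on genes tested through their KO level. The other 33 passed in both groups.

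Changes were uneven across the set. Rad51ap1, Clspn, Exo1 and Fancd2 had the largest fold changes, between 17.9 and 23.6 times the WT level. Other genes of the set, Nbn, Eme1, Fanci and the Ku genes of end joining Xrcc5 and Xrcc6, were not called and lay within 1.27-fold of WT in either direction. Eme1, Fanci and Xrcc6 share exon bases with other genes, whose part in their levels was not tested. In bulk liver RNA, more cells that express a gene and more RNA per cell cannot be told apart.

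**Figure D1:**
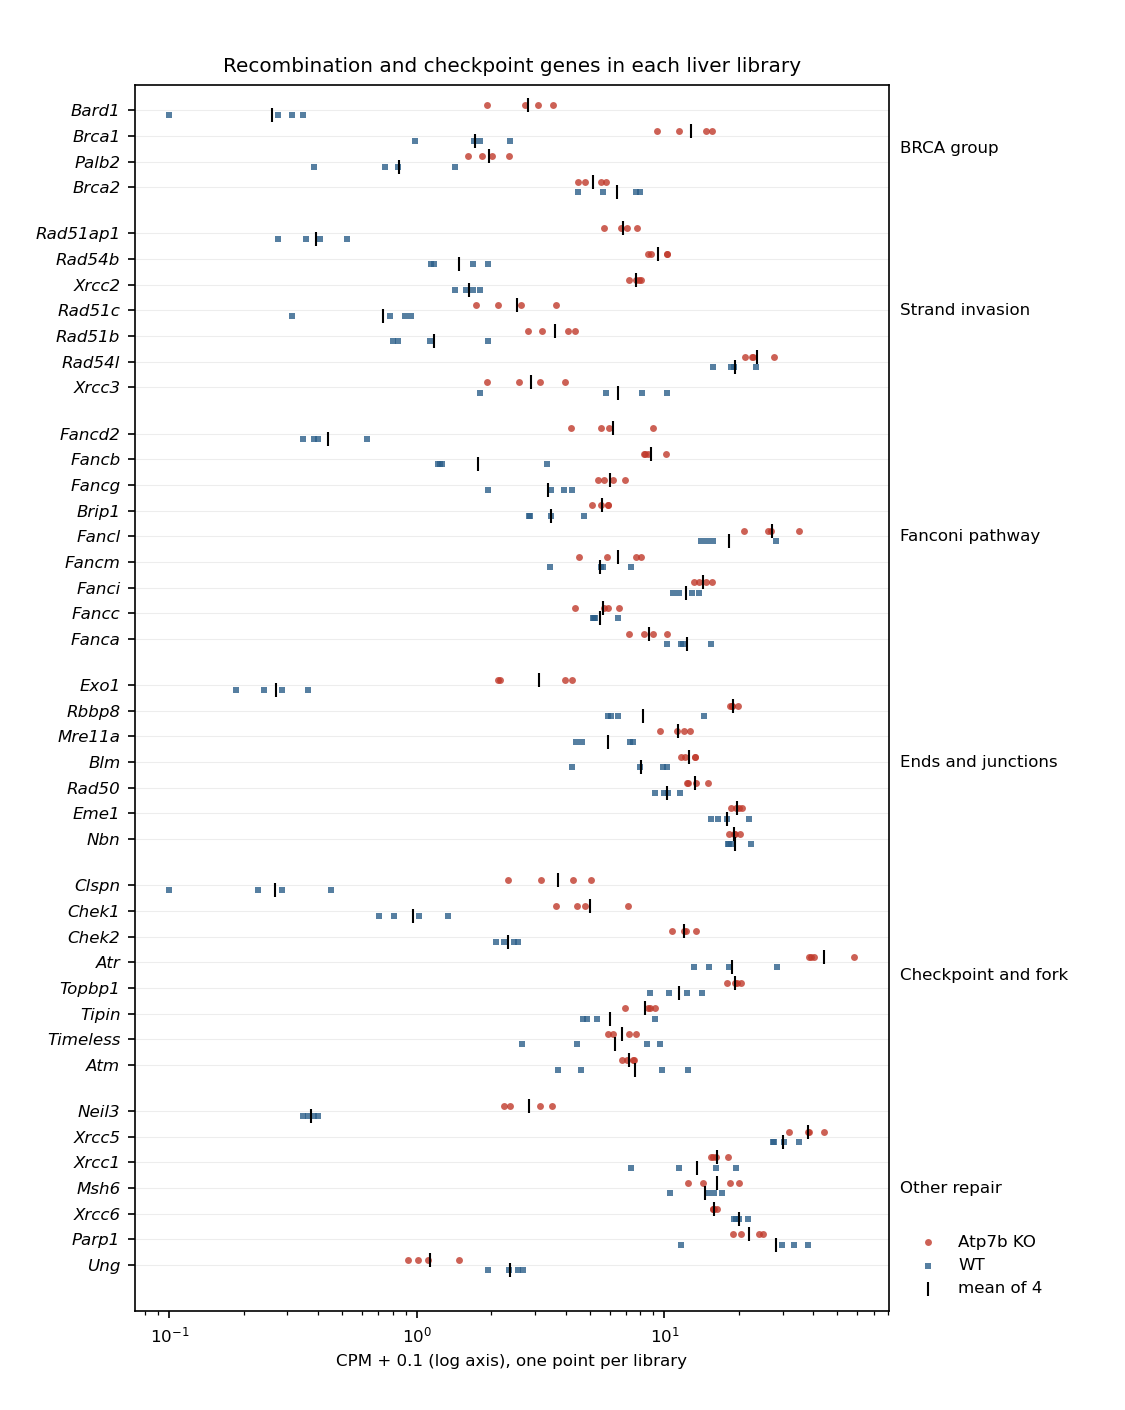
Level of each of the 42 genes in every library, as CPM plus 0.1 on a log axis, with KO libraries as red circles above WT libraries as blue squares and black ticks at the mean of 4. The genes are ordered by fold change within each role, and the red and blue points stand apart for genes at the top of each role and mix for many of those lower down.

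Total counts were 14583961 to 18423836 in KO libraries and 9880253 to 27530506 in WT libraries, and 3 counts correspond to 0.138 to 0.190 CPM in KO and 0.129 to 0.425 CPM in WT. Levels are in CPM, counts over the library total times its TMM scaling factor. Atp7b read 8.76, 8.91, 6.50 and 7.15 CPM in KO replicates 1 to 4 and 28.9, 31.9, 9.63 and 27.4 CPM in WT replicates 1 to 4 (log2 fold change -1.65 ± 0.32 (SE), adjusted p = 0.00313). WT replicate 3, which had the fewest counts, stood apart from the other WT libraries and read Atp7b near the KO level. For the copper-binding metallothioneins it lay with WT, with Mt1 at 924, 678, 1142 and 427 CPM in KO and 2.46, 4.55, 6.23 and 4.33 CPM in WT replicates 1 to 4, and Mt2 and Cdkn1a placed it likewise. Calls of the 42 genes that change without it are given both ways. Without it, 25 of the 42 genes were higher and 6 lower, beside 26.0% and 23.4% of the 16423 genes then tested. The library names carry numbers that fall into 3 runs, here series A (KO replicates 1 and 2, WT replicate 1), B (KO and WT replicate 3) and C (KO replicate 4, WT replicates 2 and 4), which the labels do not call batches. Within each of the 3 series, KO lay above WT for all 21 genes called higher, and below it for Ung. For each of these genes the KO and WT libraries did not overlap at all. The direction within a series follows from that and adds no separate evidence. Albumin (Alb) read 50170, 36560, 32770 and 40200 CPM in KO and 45720, 59390, 51930 and 92510 CPM in WT libraries.

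Among the BRCA group, Brca1, Bard1 and Palb2 rose and Brca2 did not pass the test. BRCA1 and BARD1 form the ubiquitin ligase that directs ends into recombination, and PALB2 bridges BRCA1 to BRCA2, which acts on the exposed strand. Brca1 (mm10 chr11:101488764-101551955, minus strand) read 14.7, 15.5, 9.25 and 11.3 CPM in KO livers, against 0.880, 1.60, 1.70 and 2.27 CPM in WT livers. The groups did not overlap, and the log2 fold change was 2.94 ± 0.30 (SE), adjusted p = 5.13e-05, 7.65-fold higher in KO. Its partner Bard1 (mm10 chr1:71027498-71103146, minus strand) read 2.98, 3.44, 1.83 and 2.64 CPM in KO livers and 0.176, 0.246, 0 and 0.214 CPM in WT livers, where the whole WT group held 11 counts. Bard1 was 14.2-fold higher in KO (3.83 ± 0.42 (SE), adjusted p = 9.35e-05). Palb2 read 1.91, 1.52, 1.73 and 2.25 CPM in KO and 1.32, 0.737, 0.283 and 0.643 CPM in WT livers (1.27 ± 0.36 (SE), adjusted p = 0.0208). The lowest KO library lay just above the highest WT library for Palb2, and leaving out WT replicate 2, WT replicate 4 or KO replicate 4 ended its call (adjusted p = 0.0589, 0.0711 and 0.0574).

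Brca2 read 5.71, 5.47, 4.67 and 4.37 CPM in KO and 5.54, 7.56, 4.39 and 7.85 CPM in WT livers, with overlapping groups. Its log2 fold change was -0.35 ± 0.23 (SE), adjusted p = 0.286, with a 95% interval of -0.85 to 0.16. Without WT replicate 3 it was called lower (-0.49, adjusted p = 0.0495), and with library totals alone its sign turned to 0.06. The RefSeq promoter of Bard1 (build GRCm38.p6, chr1:71102923-71103222, minus strand) is printed because Bard1 is the one of the 34 genes with a listed promoter that holds both letters read by E2F factors and TTTGAA, the letters of the CHR element of cell cycle promoters. Capitals mark, in order, TTTGAA and the E2F letters TTTCCCGC.
Bard1: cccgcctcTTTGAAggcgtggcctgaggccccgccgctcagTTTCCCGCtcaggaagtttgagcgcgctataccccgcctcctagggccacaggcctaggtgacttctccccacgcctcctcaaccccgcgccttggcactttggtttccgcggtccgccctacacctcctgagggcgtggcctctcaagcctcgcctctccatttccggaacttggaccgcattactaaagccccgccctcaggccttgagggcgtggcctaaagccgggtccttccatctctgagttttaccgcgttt

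Of 7 genes of strand invasion, 5 rose and none was called lower, while Rad54l and Xrcc3 did not pass the test. RAD51AP1 helps the exposed strand invade the matching duplex. Rad51ap1 (mm10 chr6:126923050-126939587, minus strand) read 6.98, 7.67, 6.60 and 5.61 CPM in KO livers and 0.176, 0.307, 0.425 and 0.257 CPM in WT livers. With 23.6-fold more RNA in KO it had the largest fold change and the lowest p-value of the 42 genes (4.56 ± 0.29 (SE), adjusted p = 3.23e-06). The RefSeq promoter of Rad51ap1 (GRCm38.p6, chr6:126939538-126939837, minus strand) is shown because no other gene of the set changed as much, and capitals mark CCAAT letters, here on the reverse strand as ATTGG. It holds neither TTTGAA nor an exact match to the E2F letters counted here, and looser E2F matches were not looked for.
Rad51ap1: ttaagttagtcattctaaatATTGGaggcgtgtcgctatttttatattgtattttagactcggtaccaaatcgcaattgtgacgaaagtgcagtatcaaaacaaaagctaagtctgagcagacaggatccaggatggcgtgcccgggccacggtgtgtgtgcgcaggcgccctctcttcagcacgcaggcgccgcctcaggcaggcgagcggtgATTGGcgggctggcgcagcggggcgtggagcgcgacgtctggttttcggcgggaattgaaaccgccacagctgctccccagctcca

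Rad54b, a DNA translocase of strand invasion, read 10.2, 10.1, 8.69 and 8.49 CPM in KO and 1.58, 1.04, 1.84 and 1.07 CPM in WT livers (2.81 ± 0.24 (SE), adjusted p = 1.67e-05). It shares 2068 exon bases on the same strand with Fsbp, a gene at 0.950 CPM in KO and 0.215 CPM in WT, so reads may be split between them. The related translocase gene Rad54l read 22.7, 27.6, 22.4 and 21.1 CPM in KO and 23.4, 19.0, 15.6 and 18.4 CPM in WT livers, and its groups overlapped (0.29 ± 0.18 (SE), adjusted p = 0.236). Rad54l shares exon bases with Lrrc41, on the opposite strand. XRCC2, RAD51B, RAD51C and XRCC3 work in small complexes that promote strand invasion. Xrcc2 read 7.94, 7.58, 7.11 and 7.82 CPM in KO and 1.32, 1.48, 1.70 and 1.59 CPM in WT livers, 5.01-fold higher (2.32 ± 0.20 (SE), adjusted p = 1.55e-05). Rad51b read 3.11, 2.71, 4.27 and 3.98 CPM in KO and 0.704, 0.737, 1.84 and 1.03 CPM in WT livers (1.78 ± 0.33 (SE), adjusted p = 0.0022), and Rad51c averaged 2.44 ± 0.835 CPM in KO livers and 0.633 ± 0.288 CPM in WT livers (SD, n = 4 each; 2.06 ± 0.43 (SE), adjusted p = 0.00447).

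Xrcc3, whose protein pairs with RAD51C, was not called. It averaged 2.80 ± 0.867 CPM in KO livers and 6.38 ± 3.60 CPM in WT livers (SD, n = 4 each), a log2 fold change of -1.21 ± 0.43 (SE), adjusted p = 0.0577. WT replicates 1, 2 and 4 lay at 5.70 to 10.12 CPM, above the highest KO value of 3.87 CPM, and WT replicate 3 at 1.70 CPM lay below the lowest KO value of 1.82 CPM. Without WT replicate 3, Xrcc3 was called lower (-1.51, adjusted p = 5.99e-04), and it was also called lower with DESeq2 (adjusted p = 0.0247) and with the number series as a covariate (adjusted p = 0.0365), and with no filter (adjusted p = 0.00659).

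In the Fanconi anaemia pathway, Fancd2, Fancb, Fancg and Brip1 rose and the other 5 of 9 genes did not pass the test. FANCD2 and FANCI are the paired clamp that the core complex (FANCA, FANCB, FANCC, FANCG, FANCL, FANCM among others) marks with ubiquitin at crosslinks. Fancd2 (mm10 chr6:113531682-113597017, plus strand) read 5.46, 8.87, 5.89 and 4.08 CPM in KO livers and 0.528, 0.246, 0.283 and 0.300 CPM in WT livers, a 17.9-fold difference (4.17 ± 0.37 (SE), adjusted p = 1.98e-05). Fanci, its partner, read 13.01, 15.4, 14.6 and 13.7 CPM in KO and 13.7, 10.8, 12.9 and 11.3 CPM in WT livers, with overlapping groups (0.22 ± 0.16 (SE), adjusted p = 0.328, 95% interval -0.13 to 0.58). The 95% interval of the log2 fold change of Fancd2 ran from 3.35 to 4.98. This pair was chosen after the values were seen, Fancd2 passed the filter through the KO libraries alone, and the difference between the genes was not tested. Fanci shares exon bases with Polg, on the opposite strand.

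Fancb, of the ubiquitin ligase module of the core complex, read 10.03, 8.22, 8.48 and 8.20 CPM in KO and 1.14, 1.17, 3.26 and 1.11 CPM in WT livers (2.50 ± 0.34 (SE), adjusted p = 3.13e-04). WT replicate 3 lay well above the other WT libraries, and leaving it out gave Fancb a log2 fold change of 2.91. Fancl, the ligase itself, averaged 27.1 ± 5.76 CPM in KO livers and 18.1 ± 6.74 CPM in WT livers (SD, n = 4 each; 0.59 ± 0.26 (SE), adjusted p = 0.108). Its WT replicate 3, at 28.2 CPM, lay within the KO range, and without that library Fancl was called higher (0.86, adjusted p = 0.00106). Fancg read 6.09, 6.84, 5.59 and 5.28 CPM in KO and 4.13, 3.38, 1.84 and 3.82 CPM in WT livers (0.82 ± 0.25 (SE), adjusted p = 0.0287). Fancg was not called when WT replicate 2 (adjusted p = 0.0697) or KO replicate 1, 2 or 3 (0.0673, 0.0861 and 0.0568) was left out.

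Brip1, the helicase that binds BRCA1, read 5.84, 5.83, 4.98 and 5.42 CPM in KO and 2.73, 2.77, 3.40 and 4.63 CPM in WT livers (0.69 ± 0.23 (SE), adjusted p = 0.0402). It missed the threshold when any one of WT replicates 1 and 2 and KO replicates 1 to 4 was left out (adjusted p 0.0657 to 0.120), without a filter (0.0713) and with the number series as covariate (0.0567), more settings than for any other of the 21. Fanca averaged 8.58 ± 1.28 CPM in KO livers and 12.2 ± 2.18 CPM in WT livers (SD, n = 4 each), with every KO library below every WT library and no call (-0.51 ± 0.19 (SE), adjusted p = 0.0692). Fanca was called lower without WT replicate 3 (-0.59, adjusted p = 0.0132), with the number series as covariate (adjusted p = 0.0411) and with DESeq2 (adjusted p = 0.0298). Fancm, the translocase that anchors the core complex, and Fancc had log2 fold changes of 0.26 ± 0.27 (SE), adjusted p = 0.514, and 0.04 ± 0.20 (SE), adjusted p = 0.898. Their 95% intervals were -0.34 to 0.87 and -0.40 to 0.49.

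**Figure D2:**
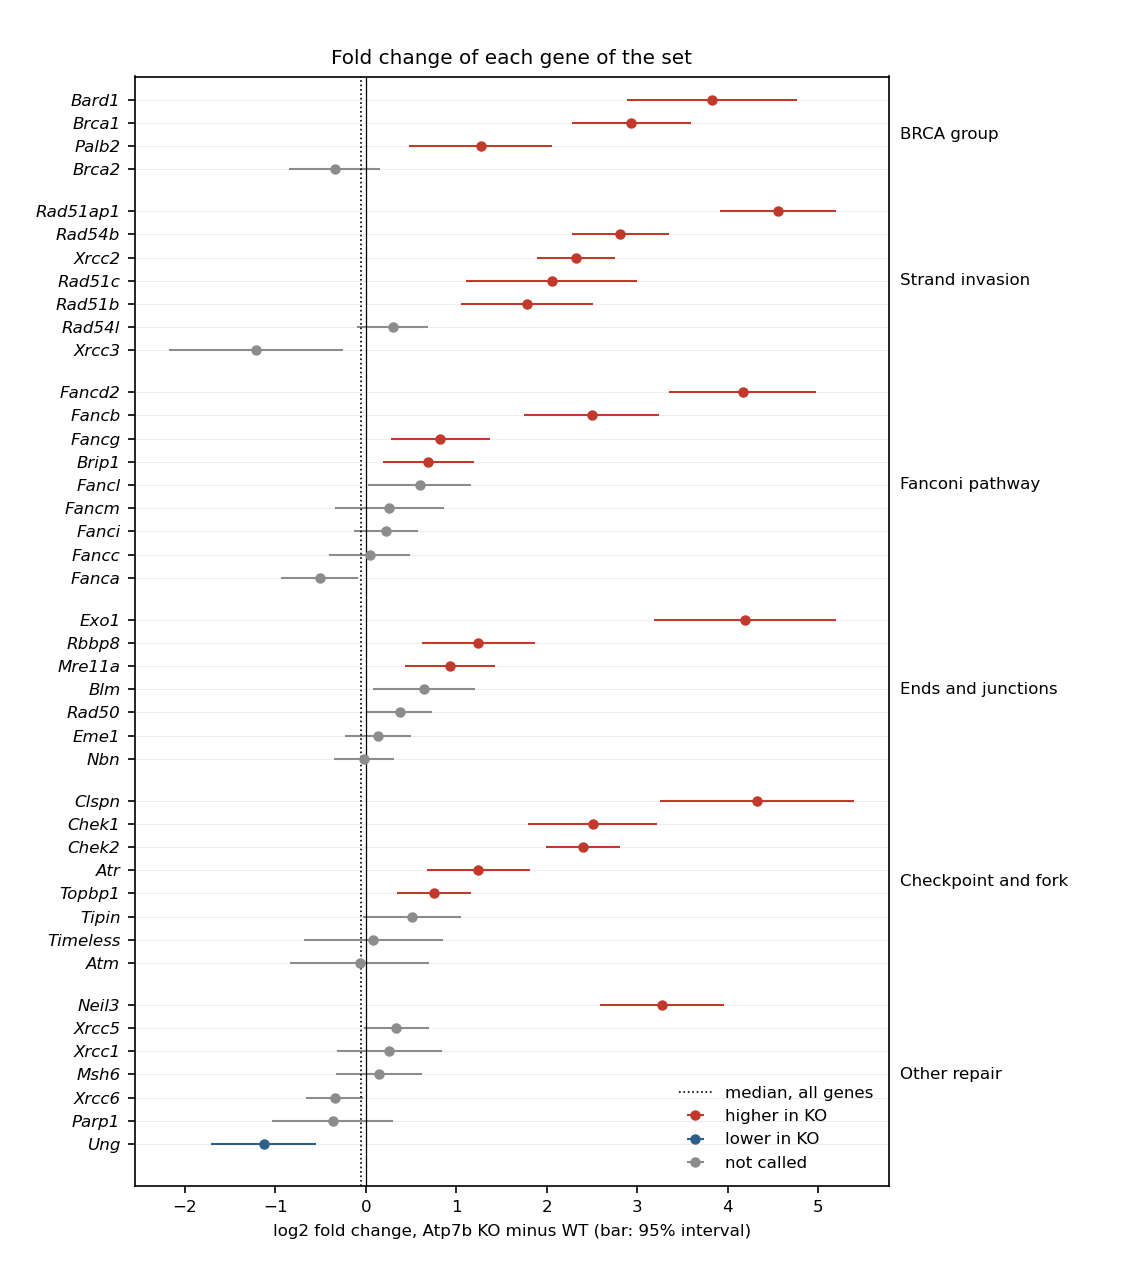
Log2 fold change of each gene, Atp7b KO minus WT, from edgeR's quasi-likelihood fit, with bars for the 95% interval, red for higher, blue for lower and grey for not called, and a dotted line at the median of all genes tested. Fancd2 at 4.17 and Fanci at 0.22, or Rad54b at 2.81 and Rad54l at 0.29, show how far genes of the same step lay apart. These pairs were chosen after the values were seen. Fanci and Rad54l share exon bases with Polg and Lrrc41, whose part in their levels was not tested.

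Of 7 genes of end and junction processing, Exo1, Rbbp8 and Mre11a were higher and Blm, Rad50, Eme1 and Nbn were not called. EXO1 is the exonuclease that lengthens the exposed strand. Exo1 read 3.87, 4.13, 2.03 and 2.06 CPM in KO livers and 0.264, 0.184, 0.142 and 0.0858 CPM in WT livers, where the group held 9 counts, the fewest of the 42 genes (4.19 ± 0.46 (SE), adjusted p = 8.21e-05). Rbbp8, whose protein CtIP starts resection, read 19.7, 18.4, 18.6 and 18.7 CPM in KO and 5.98, 6.39, 14.3 and 5.83 CPM in WT livers (1.25 ± 0.28 (SE), adjusted p = 0.00726). WT replicate 3 lay well above the other WT libraries for Rbbp8, whose log2 fold change without that library was 1.62.

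Mre11a, the nuclease of the end-binding complex, read 11.1, 12.6, 9.50 and 11.8 CPM in KO and 4.31, 7.13, 4.53 and 7.33 CPM in WT livers (0.93 ± 0.22 (SE), adjusted p = 0.00983). Its complex partners RAD50 and NBN hold the ends together and signal to ATM. Rad50 averaged 13.2 ± 1.25 CPM in KO livers and 10.2 ± 1.01 CPM in WT livers (SD, n = 4 each), with no overlap between groups and no call (0.37 ± 0.16 (SE), adjusted p = 0.11), and it was called with upper-quartile factors (adjusted p = 0.0453). Nbn averaged 19.1 ± 0.767 CPM in KO livers and 19.2 ± 2.02 CPM in WT livers (SD, n = 4 each; -0.02 ± 0.15 (SE), adjusted p = 0.95), with a 95% interval of -0.35 to 0.31, and its sign turned under several scalings. The helicase gene Blm read 12, 13.2, 13.2 and 11.6 CPM in KO and 4.13, 7.87, 9.77 and 10.1 CPM in WT livers, without overlap (0.64 ± 0.26 (SE), adjusted p = 0.0828). Blm was called without WT replicate 3 (0.72, adjusted p = 0.0251) and with upper-quartile factors (adjusted p = 0.0416). Eme1, whose protein cuts joint molecules together with MUS81, averaged 19.6 ± 0.899 CPM in KO livers and 17.8 ± 2.90 CPM in WT livers (SD, n = 4 each; 0.14 ± 0.16 (SE), adjusted p = 0.577).

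Of 8 checkpoint and fork genes, Clspn, Chek1, Chek2, Atr and Topbp1 were higher and Atm, Tipin and Timeless did not pass the test. TOPBP1 switches ATR on, and claspin (Clspn) holds CHEK1 to ATR. Clspn (mm10 chr4:126556935-126593903, plus strand) read 4.19, 4.96, 2.23 and 3.07 CPM in KO livers and 0.352, 0.184, 0 and 0.129 CPM in WT livers, with 10 counts over the WT group (4.32 ± 0.49 (SE), adjusted p = 1.01e-04). Chek1 read 7.05, 4.68, 3.56 and 4.32 CPM in KO and 1.23, 0.922, 0.708 and 0.600 CPM in WT livers, 5.68-fold higher (2.51 ± 0.32 (SE), adjusted p = 2.34e-04). Both separated the groups without overlap.

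Atr, the kinase switched on at exposed single-stranded DNA, read 58.5, 38.1, 39.0 and 40.2 CPM in KO and 13.1, 15.0, 28.3 and 18.2 CPM in WT livers (1.25 ± 0.26 (SE), adjusted p = 0.0043). KO replicate 1 was the highest library and WT replicate 3 the highest of the WT group. Topbp1 averaged 19.2 ± 1.07 CPM in KO livers and 11.3 ± 2.35 CPM in WT livers (SD, n = 4 each; 0.75 ± 0.18 (SE), adjusted p = 0.0105). Chek2 (mm10 chr5:110839979-110874145, plus strand), the effector kinase of ATM, read 10.6, 13.3, 12.1 and 11.8 CPM in KO and 2.46, 2.15, 1.98 and 2.36 CPM in WT livers, without overlap (2.40 ± 0.18 (SE), adjusted p = 8.16e-06). Atm averaged 7.10 ± 0.382 CPM in KO livers and 7.53 ± 4.17 CPM in WT livers (SD, n = 4 each; -0.07 ± 0.35 (SE), adjusted p = 0.903). WT libraries spread from 3.61 to 12.3 CPM for Atm, around all 4 KO libraries at 6.62 to 7.44 CPM.

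TIMELESS and TIPIN travel with the replication fork and protect it when it stalls. Tipin averaged 8.25 ± 0.995 CPM in KO livers and 5.91 ± 2.12 CPM in WT livers (SD, n = 4 each; 0.51 ± 0.25 (SE), adjusted p = 0.147), and was called higher without WT replicate 3 (0.75, adjusted p = 0.00387). Timeless averaged 6.65 ± 0.836 CPM in KO livers and 6.20 ± 3.30 CPM in WT livers (SD, n = 4 each; 0.08 ± 0.35 (SE), adjusted p = 0.879), and its sign turned without WT replicate 3 (-0.15) or WT replicate 4 (-0.07). The RefSeq promoters of Chek2 (GRCm38.p6, chr5:110839733-110840032, plus strand) and Clspn (GRCm38.p6, chr4:126556730-126557029, plus strand) are shown as checkpoint genes called higher that hold both CCAAT and E2F letters, as do Xrcc6 and Msh6, which were not called. Capitals mark ATTGG, the reverse of CCAAT, and the E2F letters read on the reverse strand as GCGGGAAA in Chek2 and GCGCGAAA in Clspn.
Chek2: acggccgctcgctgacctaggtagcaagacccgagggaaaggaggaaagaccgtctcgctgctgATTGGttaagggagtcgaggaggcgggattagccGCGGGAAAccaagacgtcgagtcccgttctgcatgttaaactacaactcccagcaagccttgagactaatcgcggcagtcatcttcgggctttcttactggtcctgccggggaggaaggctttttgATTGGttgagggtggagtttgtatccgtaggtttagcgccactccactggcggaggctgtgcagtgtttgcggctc
Clspn: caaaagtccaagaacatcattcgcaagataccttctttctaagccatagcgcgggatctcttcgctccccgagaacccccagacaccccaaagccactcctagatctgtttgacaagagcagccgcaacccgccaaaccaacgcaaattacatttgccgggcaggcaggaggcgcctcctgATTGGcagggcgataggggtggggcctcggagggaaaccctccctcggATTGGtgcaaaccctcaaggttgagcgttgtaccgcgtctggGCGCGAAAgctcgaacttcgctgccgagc

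The 7 genes of the remaining repair pathways included 1 higher, 1 lower and 5 not called. NEIL3 is a glycosylase that removes damaged bases, also from single strands and crosslinks. Neil3 read 3.43, 3.03, 2.29 and 2.16 CPM in KO livers and 0.264, 0.246, 0.283 and 0.300 CPM in WT livers, 9.67-fold higher (3.27 ± 0.31 (SE), adjusted p = 3.36e-05). Ung, which removes uracil from DNA, was the only gene of the 42 called lower. It read 0.825, 1.38, 0.914 and 1.01 CPM in KO and 2.46, 2.58, 2.27 and 1.84 CPM in WT livers, 2.18-fold lower (-1.13 ± 0.26 (SE), adjusted p = 0.00804), which missed the threshold when libraries were scaled by totals alone (adjusted p = 0.0921) or by totals less the 10 most abundant genes (adjusted p = 0.065).

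The Ku heterodimer of end joining is made of XRCC5 and XRCC6. Xrcc5 read 43.9, 38.1, 31.6 and 37.8 CPM in KO and 27.3, 27.6, 34.8 and 30.4 CPM in WT livers, with overlapping groups (0.34 ± 0.16 (SE), adjusted p = 0.147). Xrcc6 read 15.7, 15.6, 16.1 and 15.5 CPM in KO and 19.0, 19.9, 19.4 and 21.7 CPM in WT livers, with every KO library below every WT library and no call (-0.34 ± 0.14 (SE), adjusted p = 0.0932). Without WT replicate 3, Xrcc5 was called higher (0.40, adjusted p = 0.026) and Xrcc6 lower (-0.37, adjusted p = 0.0258), as Xrcc6 also was with DESeq2 (adjusted p = 0.0205). Parp1, the sensor of strand breaks, averaged 22.0 ± 2.87 CPM in KO livers and 28.1 ± 11.5 CPM in WT livers (SD, n = 4 each; -0.36 ± 0.30 (SE), adjusted p = 0.403). Without WT replicate 3, the lowest library for Parp1 at 11.6 CPM, it was called lower (-0.63, adjusted p = 0.00268). The scaffold gene Xrcc1 (0.26 ± 0.26 (SE), adjusted p = 0.5) and the mismatch recognition gene Msh6 (0.15 ± 0.21 (SE), adjusted p = 0.648) did not pass the test, with 95% intervals of -0.32 to 0.84 and -0.33 to 0.62. Without WT replicate 3 their log2 fold changes were 0.06 and 0.01.

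Levels set per kilobase of exon show where the genes stood relative to each other. Xrcc5 was the most abundant in both genotypes, at 14.8 ± 1.95 CPM per kilobase in KO and 11.8 ± 1.37 in WT (SD, n = 4 each). Fancl, Nbn and Eme1 followed in KO, at 8.04, 7.52 and 7.09 CPM per kilobase, with SDs of 1.71, 0.303 and 0.326, larger than the gaps between some of them. At the other end Exo1, Clspn and Bard1 had the lowest levels in WT, at 0.0201, 0.0231 and 0.0281 CPM per kilobase. In KO these 3 genes reached 0.359, 0.503 and 0.481 CPM per kilobase, still below Brca1 at 1.49. The least abundant in KO was Ung, at 0.189 ± 0.0444 CPM per kilobase in KO and 0.418 ± 0.0592 in WT.

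Ratios between genes of one complex or one step depend little on library scaling, and gene length cancels in their difference between genotypes. They are described for pairs chosen after the values were seen, with 0.1 CPM added to each gene and no test. The log2 ratio of Fancd2 to Fanci was -1.26 ± 0.379 in KO and -4.84 ± 0.271 in WT (SD, n = 4 each), a difference of 3.58, or 3.50 without WT replicate 3. Fanci shares exon bases with Polg, whose part in this ratio was not tested. Rad51c to Xrcc3 gave -0.20 ± 0.490 in KO and -3.01 ± 1.44 in WT, and WT averaged -3.70 without WT replicate 3. Chek2 to Atm gave 0.74 ± 0.149 in KO and -1.53 ± 0.924 in WT, and without WT replicate 3 the difference was 1.93, against 2.27 with it. Palb2 to Brca2 gave -1.41 ± 0.362 in KO and -3.04 ± 0.714 in WT. Ratios of Brca1 to Bard1 overlapped between the groups (2.18 ± 0.103 in KO, 2.80 ± 1.01 in WT), with a difference of -0.62 that turned to 0.38 with 0.5 CPM added, and so did those of Mre11a to Rad50 (-0.23 ± 0.181 in KO, -0.83 ± 0.343 in WT). Tipin to Timeless gave 0.31 ± 0.182 in KO and 0.05 ± 1.24 in WT, with a difference of 0.26, or 0.83 without WT replicate 3.

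Among the KO livers, KO replicates 1 and 2 most often had the top values. Of the 21 genes called higher, 10 had their top KO value in KO replicate 2, 9 in KO replicate 1, and 1 each in KO replicates 3 and 4. KO replicate 3 held the lowest KO value for 10 of them and KO replicate 4 for 6. Brca1 at 15.5 CPM in KO replicate 2 and 9.25 CPM in KO replicate 3 shows the size of that spread. The median SD of log2 levels over the 42 genes was 0.184 in KO and 0.405 in WT, and 0.256 in WT without WT replicate 3. These SDs include counting error, which is larger where WT counts were few, and its part was not tested. WT replicate 3 was the highest of the WT group for 14 of the 42 genes and the lowest for 15. WT replicate 1 was close to it, the highest for 14 and the lowest for 13.

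Head-to-head neighbours, coding genes that start within 1000 bases on the opposite strand and point away, were annotated for 13 of the 42 genes (31.0%), beside 9.86% of 13158 coding genes tested. Of the 9 called higher with such a neighbour, 1 neighbour was higher, 1 lower and 7 not called. Emc3 starts 30 bases from Fancd2 and averaged 61.85 ± 5.90 CPM in KO and 61.7 ± 8.95 CPM in WT livers (SD, n = 4 each; log2 fold change 0.00 ± 0.16, adjusted p = 0.986). Nbr1, an autophagy receptor gene 194 bases from Brca1, averaged 222.5 ± 24.35 CPM in KO and 228 ± 49.0 CPM in WT livers (-0.04 ± 0.19, adjusted p = 0.903). Zfyve26 beside Rad51b was lower (-0.91 ± 0.23, adjusted p = 0.0127), and Tex14, 111 bases from Rad51c and otherwise known from germ cells, was higher at 0.903 ± 0.0869 CPM in KO and 0.0829 ± 0.0655 CPM in WT livers (3.29 ± 0.47, adjusted p = 4.70e-04). Tex14 held 5 counts over the WT libraries, and both it and Rad51c passed the filter through the KO libraries alone.

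**Figure D3:**
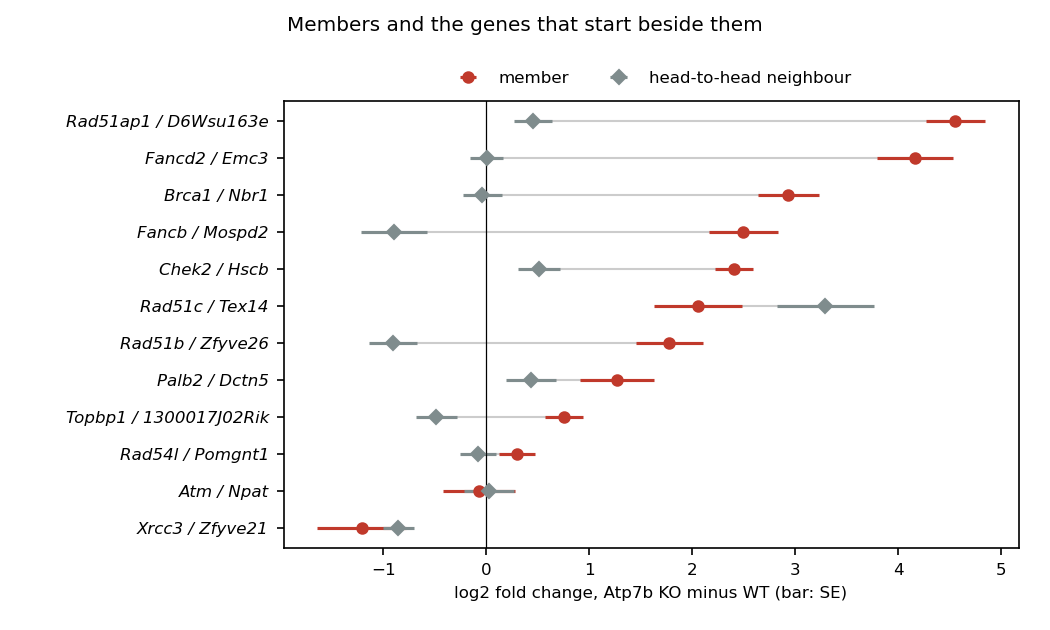
Log2 fold change, Atp7b KO minus WT, of each gene of the set (red circles) and of its head-to-head neighbour (grey diamonds), with bars for the SE, for the 12 pairs in which the neighbour was tested. Rad51ap1 lies at 4.56 and its neighbour D6Wsu163e at 0.45, while Rad51c and Tex14 both lie right of 2.

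Promoter letters were counted in 300-base RefSeq promoters, from 250 bases before to 50 after the start, on both strands, for the 34 of 42 genes with an entry. Those without one are Rbbp8, Tipin, Nbn, Exo1, Rad54b, Fancd2, Xrcc2 and Rad50. E2F letters (TTTCCCGC, TTTGGCGC, TTTGCCGC or TTTCGCGC) occurred in 9 of the 34 (26.5%), beside 2.605% of all 27025 genes with a promoter and 4.499% of the 10002 of them that were tested. They were found in 6 of the 16 genes called higher, Bard1, Rad51c, Fancg, Chek2, Clspn and Topbp1. Of the other 18 genes, Brca2, Xrcc6 and Msh6 held them. Over all tested genes the share was 4.35% among those called higher and 4.53% among the rest. CCAAT occurred in 20 of the 34 (58.8%), beside 43.0% of tested genes, and TTTGAA in 3 of 34 (8.82%), beside 14.7%. None of the matches to different letters overlapped each other. Median GC content was 58.8% in the 34 promoters and 60.3% in those of tested genes.

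Exons of 19 of the 42 genes share bases with another annotated gene, and reads cannot be assigned by strand because the strand setting was not given in the sources used here. Of these 19, 6 were higher and 13 not called, while of the 23 without overlap 15 were higher, 1 lower and 7 not called. Counting only overlaps of at least 100 bases, 6 of 15 were higher with overlap, and 15 of 27 without. Over all genes tested, 17.6% were higher and 12.5% lower. Overlaps were not counted for genes outside the set, and whether calls go with overlap was not tested. Fanci shares 921 exon bases with Polg, which averaged 26.25 CPM in KO and 41.48 CPM in WT livers. Rad54l shares 1184 bases with Lrrc41 (34.35 CPM in KO, 30.4 CPM in WT) and Fanca 920 bases with Zfp276 (13.96 CPM in KO, 27.95 CPM in WT). Eme1 shares 221 bases with Lrrc59 (64.1 CPM in KO, 70.7 CPM in WT), Xrcc6 344 bases with Desi1 (21.0 CPM in KO, 34.5 CPM in WT) and Fancl 462 bases with Vrk2 (20.2 CPM in KO, 10.8 CPM in WT). The part of these neighbours in the levels of the 6 genes was not tested.

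Beyond the 42 genes, 108 further genes of the same pathways were listed, of which 99 were tested. Of these, 25 (25.25%) were higher and 7 (7.07%) lower, beside 17.6% and 12.5% of all genes tested. Their median log2 fold change was 0.13. By list, 20% to 33.3% were higher and 0% to 12.5% lower. Without WT replicate 3 the counts were 40 and 12, beside 26.0% and 23.4% of all genes then tested. Leaving out WT replicate 1, 2 or 4 or KO replicate 2, 3 or 4 gave 2 to 4 lower, with 2 for KO replicate 4. Among 27 other recombination genes tested, 9 were higher and 2 lower. Polq, the polymerase of end joining by short homology, rose to 7.61 ± 1.69 CPM in KO, against 0.146 ± 0.0428 CPM in WT (SD, n = 4 each; 5.56 ± 0.33 (SE), adjusted p = 2.50e-06). Parpbp, which restrains recombination, averaged 8.42 ± 0.968 CPM in KO livers and 0.270 ± 0.201 CPM in WT livers (5.15 ± 0.35 (SE), adjusted p = 4.32e-06), and Fignl1, which acts in recombination, averaged 10.7 ± 1.51 CPM in KO livers and 0.316 ± 0.199 CPM in WT livers (5.03 ± 0.39 (SE), adjusted p = 8.64e-06). These exceeded every one of the 42 genes in fold change. Polq, Parpbp and Fignl1 held 9, 13 and 19 counts over the WT libraries, and passed the filter through the KO libraries alone. The 25 called higher thus rest in part on genes tested through their KO level.

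Of 13 other Fanconi genes, 3 were higher and none lower. Ube2t, the conjugating enzyme for FANCD2, averaged 7.77 ± 1.53 CPM in KO livers and 0.563 ± 0.192 CPM in WT livers (SD, n = 4 each; 3.85 ± 0.29 (SE), adjusted p = 7.08e-06), Apitd1 had a log2 fold change of 3.48 and Faap20 of 1.02. Ube2t and Apitd1 held 30 and 8 counts over the WT libraries, and also passed the filter through the KO libraries alone. Of 20 other checkpoint and break signalling genes, 4 were higher and 2 lower. The 2 lower, named after their values were seen, were Rad9a (-0.54 ± 0.18 (SE), adjusted p = 0.0443) and Hus1 (-0.61 ± 0.20 (SE), adjusted p = 0.0381), which encode subunits of the clamp that helps activate ATR. With 1 library left out at a time, Rad9a was called in 1 of 8 fits (without WT replicate 3) and Hus1 in 2 of 8, with adjusted p up to 0.133 and 0.111. Aunip, which helps CtIP reach breaks, averaged 3.83 ± 0.603 CPM in KO livers and 0.208 ± 0.0693 CPM in WT livers (SD, n = 4 each; 4.26 ± 0.33 (SE), adjusted p = 7.86e-06), and Pkmyt1, which holds CDK1 inactive, averaged 6.56 ± 0.888 CPM in KO livers and 1.17 ± 0.357 CPM in WT livers (2.49 ± 0.27 (SE), adjusted p = 8.77e-05). Cdc25c, the phosphatase that reverses that block, had 261 counts over the KO and 1 over the WT libraries, a scaled ratio of 194 (95% interval for counting error 34.5 to 7684). Among 9 other end-joining genes, Aplf (1.04) and Dntt (0.81) were higher and none lower, with Dntt called in 3 of 8 such fits. Of 22 other base excision and mismatch repair genes, 5 were higher and 2 lower, and Lig1 (1.38), Fen1 (1.09) and Aptx (0.64) had the lowest p-values.

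Meiotic recombination genes, which act in germ cells, were listed as well. Of 16, 8 passed the filter, with Rec8 (3.29) and Mnd1 (0.79) higher and Sycp3 (-1.80) lower, and Mnd1 was called in 1 of the 8 fits with a library left out, that without WT replicate 3. Dmc1 and Spo11, the meiotic recombinase and break-forming enzyme, stayed at or below 0.317 CPM in every library. Hormad1 and Mei1 had no count in WT livers and at most 0.203 CPM in KO livers.

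**Figure D4:**
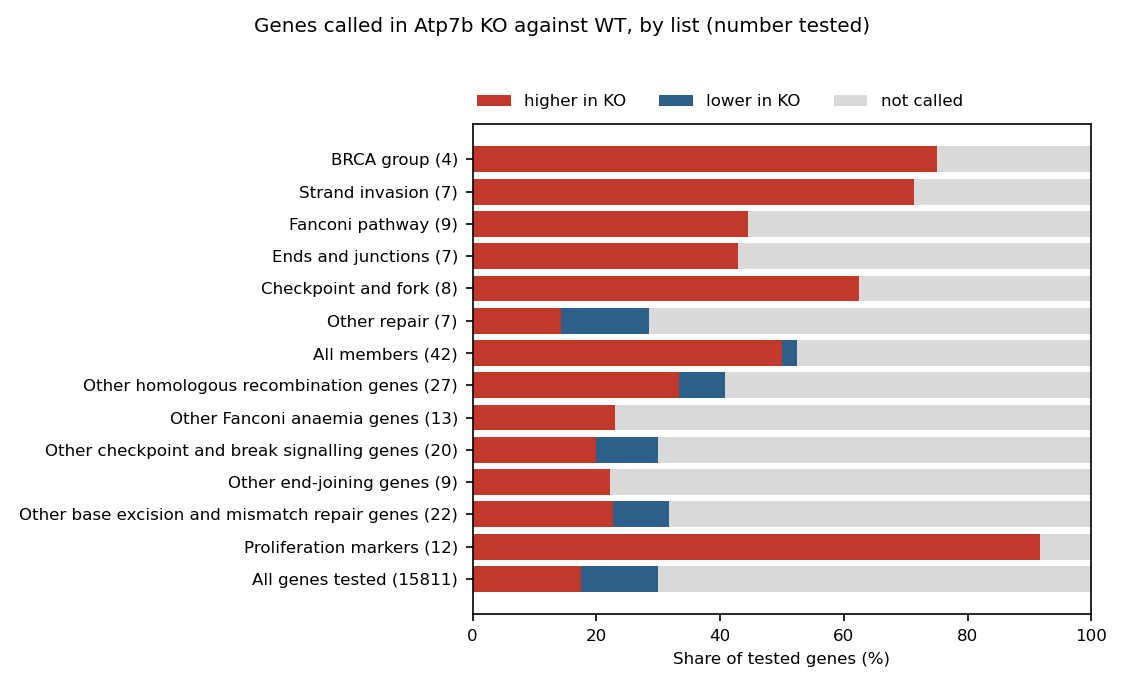
Share of tested genes called higher (red), lower (blue) or not called (grey) in Atp7b KO against WT, for each role within the set, the 42 genes together, 5 further repair lists, proliferation markers and all genes tested, with the number tested in brackets. The 42 genes lie between the proliferation markers, with 11 of 12 higher, and the further repair lists, from 4 of 20 to 9 of 27 higher. Members and lists were chosen with earlier results of these data known, so this order may follow from the choice. Of all genes tested, 17.6% were higher.

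Markers of dividing cells and of some other cell types moved with genotype as well. Over all genes tested, 17.6% were higher and 12.5% lower. Of 12 proliferation markers 11 were higher, with a median log2 fold change of 3.89 and summed levels of 210 to 275 CPM in KO and 48.1 to 84.5 CPM in WT libraries. Mki67, a marker of cycling cells, averaged 22.7 ± 7.78 CPM in KO livers and 2.12 ± 0.489 CPM in WT livers (SD, n = 4 each; 3.40 ± 0.29 (SE), adjusted p = 1.61e-05). Pcna did not pass the test (0.42 ± 0.27 (SE), adjusted p = 0.277), and was called higher without WT replicate 3 (0.75, adjusted p = 8.73e-04). Cholangiocyte markers were higher for 6 of 7 genes, with summed levels of 425.5 to 1023 CPM in KO and 41.98 to 94.85 CPM in WT libraries. Lymphocyte markers were higher for 3 of 7 tested (9.65 to 14.6 CPM in KO, 3.73 to 6.58 CPM in WT) and macrophage markers for 1 of 7 (323 to 857 CPM in KO, 141 to 512 CPM in WT). Summed levels of the macrophage markers overlapped between the groups. Stellate cell markers were higher for 2 of 6 (118.5 to 219 CPM in KO, 55.25 to 83.9 CPM in WT), and both neutrophil markers tested were higher (5.84 to 13.9 CPM over the list in KO, 1.16 to 5.38 CPM in WT), with Ly6g at 0 in WT libraries.

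Hepatocyte markers were lower for 3 of 7 (44030 to 65200 CPM in KO, 68310 to 118500 CPM in WT), endothelial markers for 1 of 6 (55.9 to 121.5 CPM in KO, 91.6 to 179 CPM in WT). Erythroid markers had 1 of 6 higher and 1 lower (506 to 1375 CPM in KO, 295 to 731 CPM in WT). Summed levels of the endothelial and of the erythroid markers overlapped between the groups. Of 6 germ cell markers, Sycp3 alone was tested and was lower (12.4 to 21.0 CPM over the list in KO, 35.2 to 90.9 CPM in WT), with Stra8 and Mael at 0 in WT libraries. The part of these cell types and of cell division in the levels of the 42 genes was not tested.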

How the data were processed

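Liver RNA was sequenced in 8 libraries, 4 Atp7b KO and 4 WT, from mice 6 months old. Trizol, DNase and a Qiagen column were used on the RNA, per the labels' protocols. FastQC, cutadapt, STAR and the build mm10 were used, per the submitters' processing notes. Counting program, strand setting and annotation release were not given in the sources used here. What the authors deposited were raw counts per gene, with no normalization as far as the values show. Total counts ran from 9880253 to 27530506 per library.

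Coordinates, exon lengths, overlaps and neighbours came from GENCODE M21 (mm10), which held the identifiers of 54165 of 54232 rows. Genes were filtered with filterByExpr, scaled with TMM factors and compared with edgeR 4.0.16 (glmQLFit and glmQLFTest, genotype as the only term) in R 4.3.3, with Benjamini-Hochberg adjustment over 15811 genes and calls at an adjusted p under 0.05. The SE is the fold change divided by the root of the F value. Intervals are 95%, and counting intervals and floors cover counting error only. The procedure was tested on simulated data. Alternatives were DESeq2 1.42.0, limma-voom (limma 3.58.1), other scalings and filters, a threshold of 0.01, the number series as covariate and leaving out each library. Another pseudocount for the gene ratios was added after seeing the data. Promoters are RefSeq, GRCm38.p6, with 34 of 42 genes matched.

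The members and lists were chosen with earlier results of these data known. Per library values are given for the 4 genes with the lowest p in each of 6 roles and for genes called lower, and up to 3 called genes with the lowest p are named from each further list. Other genes are named from their values, and some genes of the further lists are not reported here. Replicate numbers follow accession order.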

Additional observations from a re-analysis of the deposited data

Results flagged for a closer look

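In 8 of 86 groups of 4 libraries that were looked at, 1 library lay far from the other 3 relative to the group's range. Chance marks about 1 group in 20, and 5 of the 8 were in WT replicate 3. Fancb read 10.03 CPM in KO replicate 1, against 8.20 to 8.48 CPM in the other KO libraries. In WT replicate 3, Fancb read 3.26 CPM (1.115 to 1.17 CPM in the other WT libraries), Fancc 6.37 CPM (5.04 to 5.15 CPM), Fancl 28.2 CPM (13.9 to 15.7 CPM), Rbbp8 14.3 CPM (5.83 to 6.39 CPM) and Tipin 9.06 CPM (4.59 to 5.22 CPM). Nbn read 22.25 CPM in WT replicate 4 and 18.0 to 18.5 CPM in the other WT libraries. Atr read 58.5 CPM in KO replicate 1 and 38.1 to 40.2 CPM in the other KO libraries.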

How the results depend on the processing

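Of the 21 genes called higher, 18 were called under all 17 alternative fits, and 12 of the 20 not called were called in at least 1. These fits keep the threshold of 0.05. At an adjusted p under 0.01, 17 genes of the set were higher, without Palb2, Fancg, Brip1 and Topbp1, and 1 lower, beside 1960 and 912 of all genes. With library totals only, 28 genes of the set were higher and 0 lower (21 and 1 with TMM factors), 41 and 1 of the other pathway genes (25 and 7 with TMM), and 4804 and 642 of all genes (2775 and 1971 with TMM). Totals without the 10 most abundant genes gave 28 and 0, 39 and 1, and 4485 and 743. Under both, the added genes of the set were Rad54l, Fancl, Fanci, Rad50, Blm, Tipin and Xrcc5. The set's median log2 fold change was then 1.11 and 1.05 (0.67 with TMM), while the median of all genes shifted by 0.37 and 0.32. Genes of the set called lower numbered 4 with DESeq2, 2 with no filter and 3 with the number series as covariate. Other pathway genes called lower numbered 2 at an adjusted p under 0.01, 2 with no filter and 3 with upper-quartile factors. Without a filter 4244 of all genes were higher, and at 0.01, 912 were lower.

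Leaving out 1 library at a time gave 18 to 25 higher and 1 to 6 lower in the set, 20 to 40 and 2 to 12 among other pathway genes, 2325 to 4267 and 1315 to 3837 among all genes, and a set median of 0.56 to 0.84. The upper end of each of these count ranges came without WT replicate 3.

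Signs turned for 7 genes of the set, none of them called with TMM factors and all libraries. Brca2 was 0.062 with library totals only and 0.012 without the top 10 genes. Xrcc6 was 0.080 and 0.027 under these scalings, and Parp1 0.018 with library totals only. Nbn was 0.11 with upper-quartile factors, 0.41 and 0.36 under the totals, 0.0025 with no filter, 0.00089 with the stricter filter and 0.0088 with the number series. Atm was 0.11 with limma-voom, 0.061 with upper-quartile factors, 0.42 and 0.35 under the totals and 0.051 with the number series. Fancc was -0.032 with the number series. With 1 library left out, Fancc ran from -0.040 to 0.14, Nbn from -0.061 to 0.066, Atm from -0.31 to 0.21 and Timeless from -0.15 to 0.33. The causes were not tested. With 0.5 CPM added, the differences in log2 ratio were 2.72 for Fancd2 to Fanci (3.58 with 0.1 CPM), 1.58 for Fancb to Fancl (1.85), 0.64 for Clspn to Chek1 (1.56) and 0.38 for Brca1 to Bard1 (-0.62).

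No paired analysis was possible because the replicate numbers follow accession order and pair no KO library with a WT library. The number series of the library names, each with KO and WT libraries, entered as a covariate instead. Low WT counts, 9 to 11 over the group for Exo1, Clspn and Bard1, limit the precision of those fold changes.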
